A study of Mus musculus with 12 samples.

Results

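The genes described here are 9 components of fibroblast growth factor (FGF) to ERK signalling: the ligand Fgf4, the receptors Fgfr1 and Fgfr2, the feedback phosphatases Dusp4 and Dusp6, the feedback inhibitors Spry2 and Spry4, and the ETS transcription factors Etv4 and Etv5. They were taken by name from the count table after its gene identifiers had been paired with GENCODE mouse symbols, and all 9 were found among 51467 genes. RNA was sequenced from mouse embryonic stem cells (ESCs), either wild-type (the V6.5 line) or Dgcr8 KO, a single line made earlier that lacks a protein needed to process microRNA precursors. With a single line for each genotype, an effect of Dgcr8 loss cannot be told apart from other differences between the lines. Each culture was given 500 uM 4-thiouridine (4sU) for 30 min, and its RNA was divided into a streptavidin-selected fraction, read as nascent RNA, and total RNA depleted of rRNA. There were 3 replicates of each genotype and each RNA fraction, giving 12 libraries. Both genotypes grew in Knockout DMEM with 15% serum, LIF and 2i, which is the MEK inhibitor PD0325901 with the GSK3 inhibitor CHIR99021. A blocker of the kinase directly above ERK was therefore present in every culture of both genotypes.

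ESCs secrete FGF4, which binds FGF receptors on the same and neighbouring cells and passes a signal through RAS, RAF and MEK to ERK. This pathway is known for moving ESCs out of the naive state and for directing early embryo cells towards primitive endoderm. ERK activity induces its own brakes, the Sprouty proteins that act upstream at the level of the receptor and RAS and the DUSP phosphatases that act on ERK itself, together with ETS factors of the PEA3 group such as Etv4 and Etv5.

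Because Dgcr8 KO ESCs cannot make canonical microRNAs, sequences that a microRNA could pair with are shown first. The most abundant microRNA family of ESCs shares the seed AAGUGC. Mature sequences of members whose seed continues with U are printed from the RefSeq table of GRCm38.p6, with bases 2 to 8 in capitals. The list may not hold every such member.
mmu-miR-291a-3p: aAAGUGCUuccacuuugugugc
mmu-miR-294-3p: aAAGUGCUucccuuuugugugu
mmu-miR-295-3p: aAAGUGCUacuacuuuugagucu
mmu-miR-302b-3p: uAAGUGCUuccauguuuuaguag
mmu-miR-302d-3p: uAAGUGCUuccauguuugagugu
The first 3 lie together on chromosome 7 and the last pair on chromosome 3.

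A 3′ UTR match to this seed was searched as AGCACTT or GCACTTA on the transcript strand of the longest annotated 3′ UTR (GENCODE M21). Of the 9 genes, 1 held such a match, Fgf4, beside 21.4% of the 11816 tested protein-coding genes with a 3′ UTR. It lies in the 3′ UTR of Fgf4 at chr7:144862982-144863009 (GRCm38, plus strand), with the match in capitals.
Fgf4 seed match: ccctcaggaggAGCACTTtctctcgatg
The shorter match GCACTT, which lies inside the longer ones, was present in 2 of the 9 genes, with 1 copy in Fgf4 and 2 in Spry4, beside 34.0% of the same background.
The AU-rich heptamer TATTTAT, of the kind found in many short-lived mRNAs, was present in the 3′ UTRs of 4 of the 9 genes and in 30.7% of the same background. Spry4 held 4 copies, Spry2 held 2, and Fgf4 and Etv5 held 1 each. The copies outside Spry4 are shown because Spry2 and Etv5 return below in the comparison of stability. They lie at chr7:144863069-144863096 (plus strand) in Fgf4, at chr14:105892093-105892120 and chr14:105892054-105892081 (minus strand) in Spry2, and at chr16:22381763-22381790 (minus strand) in Etv5.
Fgf4 AU-rich element: ggacgcccaatTATTTATaattttatgt
Spry2 AU-rich element, first: agtgtaaagaaTATTTATttgaagtttt
Spry2 AU-rich element, second: aaaaaaaagaaTATTTATtttaagaggc
Etv5 AU-rich element: tttcataagcaTATTTATagctttctaa
The 3′ UTRs of Fgfr1, Fgfr2, Dusp4, Dusp6 and Etv4 held neither the seed match nor the heptamer. A match of letters is a description and was not tested as a functional site.

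The libraries held 4593914 to 9295245 counted reads. Levels are given as CPM, read counts divided by library size after TMM scaling. A gene was tested when it reached 3 CPM in at least 3 libraries, which left 14033 genes, and it passed at a Benjamini-Hochberg adjusted p under 0.05 in limma-voom. Dgcr8 itself fell 3.04-fold in total RNA (101.6 ± 9.30 CPM in wild-type and 33.3 ± 1.09 CPM in Dgcr8 KO, SD, n = 3, adjusted p = 6.63e-17) and 1.42-fold in nascent RNA (adjusted p = 1.95e-06), with reads still counted over the gene in every KO library. All 8 pluripotency markers examined were tested, 3 of them higher and 5 lower in total RNA. Their total RNA added up to between 5062 and 5168 CPM (wild-type) and between 4996 and 5058 CPM (Dgcr8 KO), without overlap. Their nascent sum was 5462 to 5546 CPM (wild-type) and 6177 to 6840 CPM (Dgcr8 KO), without overlap but in the other direction. None of 7 fibroblast markers reached the level for testing, with a summed level of at most 3.76 CPM, Postn and Dcn were listed at 0 in every group, and Col1a1 stood at 1.00 CPM in wild-type and 0.355 CPM in Dgcr8 KO total RNA. Of 7 primitive endoderm markers 2 were tested. The 7 added up to 8.90 to 11.7 CPM in wild-type and 10.4 to 13.3 CPM in Dgcr8 KO total RNA. Pdgfra was higher (log2 change 2.20). Gata4 did not pass, at 4.92 CPM in wild-type and 6.48 CPM in Dgcr8 KO total RNA (log2 change 0.36, adjusted p = 0.0990). Gata6 (0.596 and 0.226 CPM in wild-type and Dgcr8 KO), Sox17 (1.49 and 0.408) and Dab2 (1.99 and 0.0914) were too low to test. Each had the lower mean in Dgcr8 KO. Cubn (0.275 and 0.312) and Sox7 (0.0927 and 0) were too low as well. Of 7 trophoblast markers 4 were tested, 1 higher and 1 lower in total RNA. The 7 added up to between 80.0 and 89.3 CPM (wild-type) and between 104 and 105 CPM (Dgcr8 KO) in total RNA. Krt8 rose from 9.32 to 52.6 CPM (log2 change 2.49), while Tfap2c fell from 56.1 to 35.0 CPM (−0.67). Eomes and Krt18 did not pass. Of 6 primed epiblast markers 4 were tested, 2 higher and 2 lower, with summed levels of 134 to 145 CPM in wild-type and 91.5 to 96.4 CPM in Dgcr8 KO total RNA, which did not overlap. In nascent RNA the same sum was 69.2 to 73.8 CPM in wild-type and 83.0 to 93.5 CPM in Dgcr8 KO, also without overlap but in the other direction. Dnmt3b (log2 change −0.90) and Pou3f1 (−2.42) fell and Otx2 (0.78) and Lef1 (1.19) rose in total RNA, while Fgf5 had no read in 11 of 12 libraries. The part of these markers in the results below was not tested, and in bulk RNA fewer cells of a type cannot be told apart from less RNA per cell.

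In total RNA, 6 of the 9 genes were lower in Dgcr8 KO ESCs, 1 was higher and 2 did not pass. The genes that fell were Fgfr1, Fgfr2, Dusp4, Spry2, Etv4 and Etv5, and the gene that rose was Spry4. Over all genes tested, 36.7% were lower and 27.2% higher by the same criterion, and the median log2 change was −0.87 over the 9 genes and −0.09 over all genes. In nascent RNA, 6 were lower, 2 were higher (Spry4 and Dusp6) and 1 did not pass, beside 28% lower and 28.3% higher over all genes. The median log2 change in nascent RNA was −0.53 for the 9 genes and −0.02 for all genes. With an absolute log2 change over 1 also required, 3 genes (Fgfr2, Dusp4 and Etv4) were lower and 1 (Spry4) was higher in each fraction. The share of all genes so called was 7.82% lower and 9.33% higher in total RNA, and 5.27% lower and 9.5% higher in nascent RNA. Fgfr2 and Dusp4 reached the level for testing only with the help of wild-type libraries, and Spry4 only through Dgcr8 KO libraries, so a difference was built into their selection. Among the other 6 genes, 4 were lower and 2 did not pass in total RNA, and 4 were lower, 1 higher and 1 did not pass in nascent RNA.

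**Figure D1:**
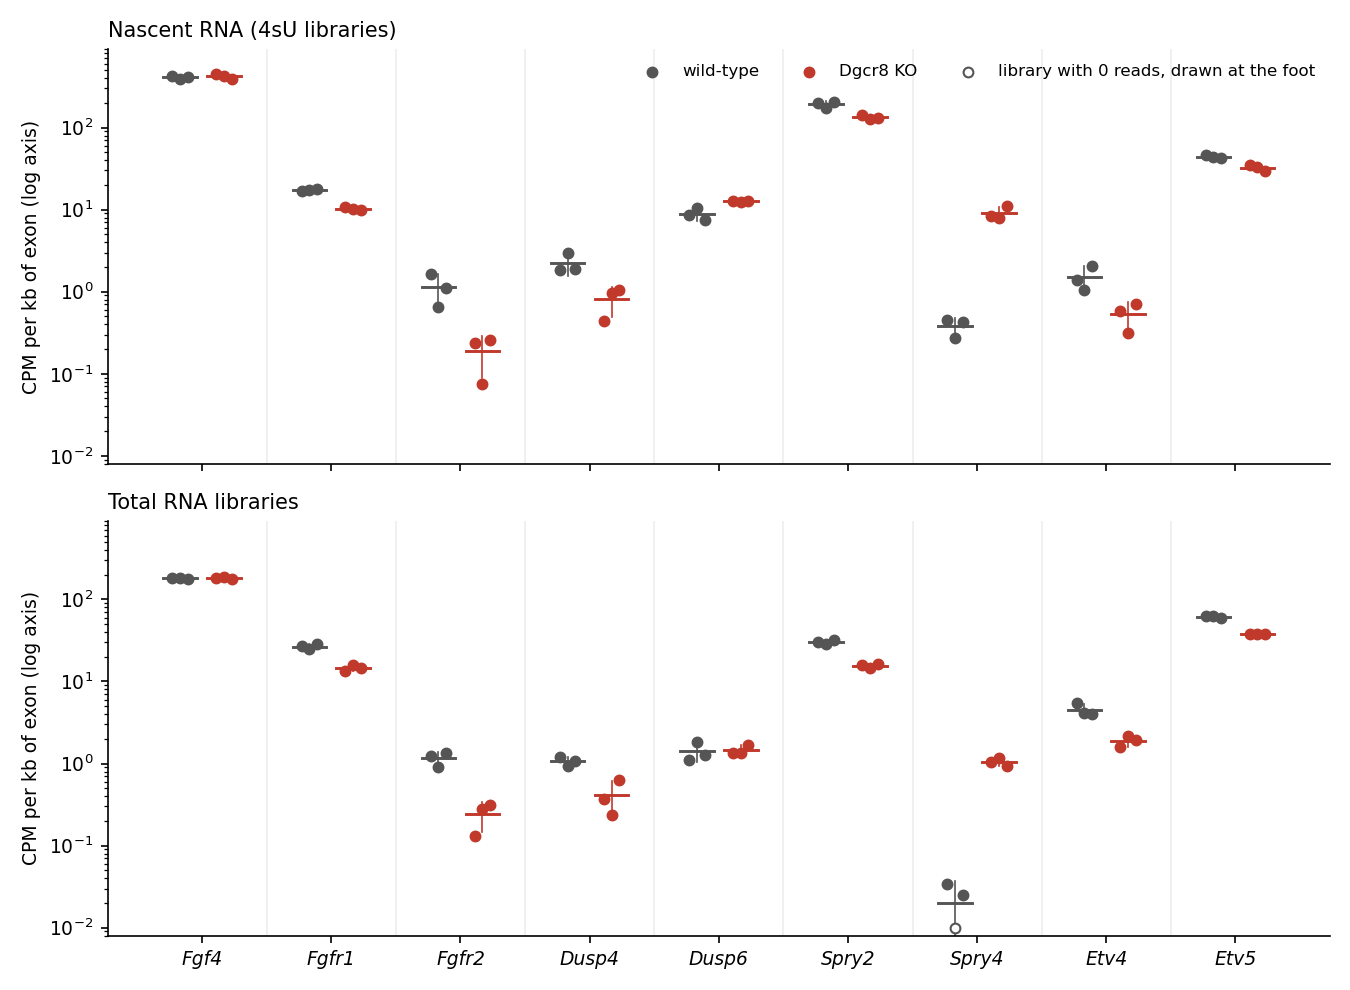
Level of each of the 9 genes in CPM per kilobase of exon (log axis) in nascent RNA (upper panel) and total RNA (lower panel), with 1 point per library, a bar at the mean and a line of 1 SD (n = 3, wild-type grey, Dgcr8 KO red). Fgf4 overlaps between genotypes in both panels, while Spry4 is the only gene far above wild-type in Dgcr8 KO. The library with 0 reads is drawn as an open point at the foot of the axis.

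Per kilobase of exon, Fgf4 had the highest level in all 4 groups, 413 ± 17.9 CPM per kb in wild-type nascent RNA and 181 ± 4.42 CPM per kb in wild-type total RNA. In wild-type nascent RNA the order below it was Spry2 (193 ± 17.2 CPM per kb), Etv5 (44.4 ± 2.04), Fgfr1 (17.3 ± 0.560) and Dusp6 (8.82 ± 1.49), with no overlap of replicates between neighbours. Dusp4, Etv4 and Fgfr2 followed at 2.23, 1.51 and 1.13 CPM per kb, and their replicates overlapped from one neighbour to the next. Spry4 was last at 0.385 ± 0.0979 CPM per kb. In wild-type total RNA the order was different, since Etv5 (61.6 ± 2.22 CPM per kb) stood above Spry2 (30.3 ± 1.94) and Spry2 overlapped with Fgfr1 (26.6 ± 1.82). Etv4 came next at 4.51 ± 0.775 CPM per kb, Dusp6, Fgfr2 and Dusp4 lay between 1.06 and 1.41 CPM per kb and overlapped, and Spry4 was again last. In Dgcr8 KO nascent RNA Spry4 moved to the sixth place at 9.09 ± 1.70 CPM per kb, where it overlapped with Fgfr1 at 10.3 ± 0.326.

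The ligand. Fgf4 lies on chromosome 7 from 144861386 to 144865243 (mm10, plus strand). In total RNA it stood at 552, 559 and 533 CPM in the wild-type libraries and at 548, 563 and 535 CPM in the Dgcr8 KO libraries. The genotypes overlapped, and the log2 change was 0.00 ± 0.05 (SE, 95% confidence interval −0.10 to 0.10, adjusted p = 0.965). In nascent RNA the wild-type libraries had 1300.4, 1194 and 1264 CPM and the Dgcr8 KO libraries 1357, 1299 and 1174 CPM, again overlapping, with a log2 change of 0.02 (adjusted p = 0.681). The intervals leave room for a change of about 0.1 on the log2 scale in total RNA. A fit to the 6 total libraries alone gave a log2 change of 0.09 with an adjusted p of 0.0180, and the same gene did not pass in the fit to all 12 libraries. Fgf4 was the gene of the 9 for which neither fraction passed in the fit to all libraries, and it was the one with the seed match in its 3′ UTR shown above.

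The receptors. Fgfr1 and Fgfr2 encode receptor tyrosine kinases that bind FGFs with heparan sulphate, and FGFR1 is the main FGF receptor of naive ESCs. Fgfr1 (chromosome 8, 25518759 to 25575718, plus strand) had 139, 129 and 148 CPM in wild-type total RNA and 69.3, 82.5 and 76.5 CPM in Dgcr8 KO total RNA. Every KO library lay below every wild-type library, and the log2 change was −0.87 ± 0.07 (SE, adjusted p = 5.93e-13). In nascent RNA, 87.2, 91.2 and 92.9 CPM in wild-type compared with 55.6, 53.0 and 52.4 CPM in Dgcr8 KO, a log2 change of −0.75 ± 0.08 (adjusted p = 4.71e-09) with no overlap.

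Fgfr2 was far rarer. Its annotated span on the minus strand of chromosome 7 runs from 130162451 to 133123350 and shares exonic bases with Ctbp2, where reads cannot be assigned to either gene. In total RNA 41, 38 and 59 reads were counted in the wild-type libraries (6.40, 4.63 and 6.86 CPM) and 6, 11 and 11 reads in the Dgcr8 KO libraries (0.677, 1.43 and 1.59 CPM). The genotypes did not overlap, and Fgfr2 fell by 2.32 on the log2 scale (SE 0.39, adjusted p = 3.94e-06). In nascent RNA 52, 16 and 32 reads in wild-type compared with 6, 2 and 7 reads in Dgcr8 KO, a log2 change of −2.58 ± 0.50 (adjusted p = 4.78e-05) with no overlap. With 2 to 11 reads in each KO library, the size of the change is less firm than its direction.

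The DUSP phosphatases. DUSP4 and DUSP6 remove phosphate from MAP kinases, DUSP4 in the nucleus and DUSP6 in the cytoplasm, where it acts chiefly on ERK. Dusp4 (chromosome 8, 34807297 to 34819894, plus strand) was rare in both fractions. In total RNA it had 21, 21 and 25 reads in wild-type and 9, 5 and 12 reads in Dgcr8 KO, which is 3.28, 2.56 and 2.90 CPM against 1.02, 0.649 and 1.73 CPM. In nascent RNA it had 4.99, 8.16 and 5.16 CPM in wild-type and 1.20, 2.67 and 2.86 CPM in Dgcr8 KO. All KO libraries lay below all wild-type libraries in both fractions, and the log2 change was −1.42 in each (SE 0.39 and adjusted p = 0.00189 in total RNA, SE 0.34 and adjusted p = 0.000698 in nascent RNA).

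Dusp6 (chromosome 10, 99263231 to 99267489, plus strand) behaved differently from Dusp4 in nascent RNA. It had 24.1, 29.1 and 20.8 CPM in the wild-type 4sU libraries and 35.8, 35.1 and 35.4 CPM in the Dgcr8 KO 4sU libraries. The KO libraries were all higher and close together, and the log2 change was 0.55 ± 0.11 (SE, adjusted p = 0.000156). In total RNA it had 3.12, 5.12 and 3.60 CPM in wild-type and 3.72, 3.76 and 4.76 CPM in Dgcr8 KO, overlapping, with a log2 change of 0.03 ± 0.25 (95% confidence interval −0.47 to 0.54, adjusted p = 0.914). These total RNA levels came from 20 to 42 reads per library, and the interval reached on either side about as far as the change seen in nascent RNA.

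The Sproutys. SPRY2 and SPRY4 are membrane-associated inhibitors that dampen the signal from receptor tyrosine kinases to ERK. Spry2 (chromosome 14, 105891949 to 105896819, minus strand) had 414, 361 and 430.0 CPM in wild-type nascent RNA and 299, 265 and 271 CPM in Dgcr8 KO nascent RNA. In total RNA it had 63.7, 58.9 and 66.9 CPM in wild-type and 33.0, 30.6 and 34.4 CPM in Dgcr8 KO. Neither fraction overlapped between genotypes, and the log2 change was −0.53 ± 0.06 (SE, adjusted p = 6.99e-09) in nascent RNA and −0.95 ± 0.09 (adjusted p = 1.53e-10) in total RNA.

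Spry4 (chromosome 18, 38586268 to 38601268, minus strand) went the other way. In total RNA it had 1, 0 and 1 reads in the wild-type libraries and 42, 41 and 30 reads in the Dgcr8 KO libraries (4.74, 5.32 and 4.33 CPM). Measured against a floor of 3 reads per wild-type library, Spry4 was at least 12.2-fold higher in Dgcr8 KO total RNA (adjusted p = 4.64e-09). In nascent RNA, 13, 6 and 11 reads in wild-type (2.09, 1.25 and 1.96 CPM) compared with 191, 190 and 266 reads in Dgcr8 KO (38.2, 36.2 and 50.6 CPM). That difference was 22.3-fold, a log2 change of 4.48 ± 0.33 (SE, adjusted p = 4.10e-13), and the genotypes did not overlap in either fraction. Spry2 and Spry4, members of the same family, therefore changed in opposite directions in the same cultures.

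The ETS factors. Etv4 and Etv5 encode closely related activators that are commonly read as markers of FGF-ERK activity. Etv4 (chromosome 11, 101769742 to 101785371, minus strand) had 13, 9.998 and 9.53 CPM in wild-type total RNA and 3.84, 5.19 and 4.62 CPM in Dgcr8 KO total RNA. In nascent RNA it was counted from 21, 12 and 28 reads in wild-type and from 7, 4 and 9 reads in Dgcr8 KO. All KO libraries lay below all wild-type libraries, with a log2 change of −1.23 ± 0.20 (SE, adjusted p = 2.48e-06) in total RNA and −1.46 ± 0.42 (adjusted p = 0.00359) in nascent RNA.

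Etv5 (chromosome 16, 22381309 to 22439719, minus strand) was the more abundant of the pair. It had 252, 255 and 238 CPM in wild-type total RNA and 152, 152 and 151 CPM in Dgcr8 KO total RNA, and 187, 178 and 171 CPM against 141, 133 and 119 CPM in nascent RNA. The genotypes did not overlap, and the log2 change was −0.71 ± 0.06 (SE, adjusted p = 1.21e-12) in total RNA and −0.45 ± 0.06 (adjusted p = 4.33e-07) in nascent RNA.

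**Figure D2:**
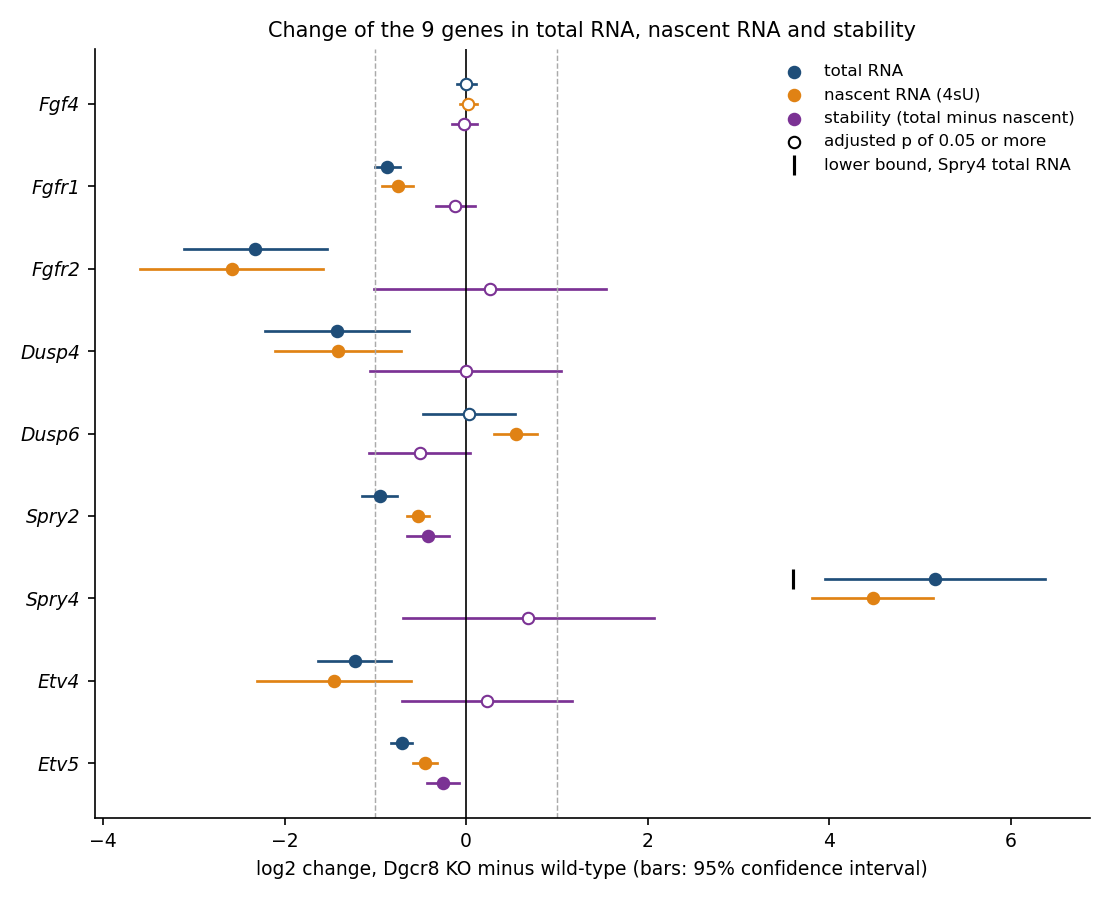
The log2 change (Dgcr8 KO minus wild-type, x axis) of each of the 9 genes in total RNA, nascent RNA and their difference, stability, with bars for the 95% confidence interval. Filled points passed at an adjusted p under 0.05, dashed lines mark a log2 change of 1, and the black tick marks the lower bound for Spry4 in total RNA. For most genes the total and nascent points lie close together, and the stability points that are filled belong to Spry2 and Etv5. The stability point of Spry4 rests on 0 or 1 read of wild-type total RNA per library and is not read as a result.

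Whether the change in total RNA was larger or smaller than that in nascent RNA was tested as an interaction of genotype and RNA fraction. This difference was read as a change in stability, since more total RNA for the same nascent RNA means slower decay at steady state. Of the 9 genes, 2 passed, both lower: Spry2 with a log2 difference of −0.42 ± 0.11 (SE, adjusted p = 0.00757) and Etv5 with −0.26 ± 0.09 (adjusted p = 0.0360). Over all genes, 11.1% were lower and 5.02% higher in stability, with a median of −0.09. No member passed with an absolute log2 change over 1, beside 1.76% of all genes in either direction. The other genes gave wide or small differences. Fgf4 stood at −0.02 (95% confidence interval −0.16 to 0.12) and Fgfr1 at −0.12 (−0.34 to 0.10), and the rarer Fgfr2, Dusp4 and Etv4 had intervals wider than 1.5 on the log2 scale. Dusp6 had a difference of −0.51 ± 0.27 (SE, adjusted p = 0.221), so its rise in nascent RNA without a called change in total RNA was not a called difference between the fractions. No stability value is given for Spry4, whose wild-type total RNA rested on 0 or 1 read per library.

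The call for Etv5 was the least firm. Its difference kept its direction in every alternative, but its adjusted p was 0.0556 with library-size scaling only, 0.144 with upper-quartile scaling, 0.227 with RLE scaling and 0.259 in DESeq2, and of 6 fits that left out a culture it passed only in the one without KO replicate 3, with adjusted p from 0.0520 to 0.166 in the other 5. Spry2 passed in all of these and missed only when genes with any read at all were tested, at an adjusted p of 0.134.

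The ratio of total to nascent RNA in libraries of the same genotype and number, taken as 1 culture, was compared between genes. It is a relative measure of how much RNA had accumulated for the amount made in 30 min, and it is given on the log2 scale relative to the median gene of the same culture, with no test. Reads of both fractions were counted over exons, and the part of gene structure in this ratio was not tested. The 3 feedback inhibitors Spry2, Dusp6 and Spry4 had the lowest ratios of the 9 genes. In wild-type cultures Spry2 stood at −2.78, −2.72 and −2.77 (mean −2.76 ± 0.03, SD, n = 3), which is 6.75-fold below the median gene and at percentile 8.46 of all genes tested. Dusp6 stood at −3.00, −2.60 and −2.60 (mean −2.73 ± 0.23), at percentile 8.62. In Dgcr8 KO cultures Spry2 was at −3.08 ± 0.11, Dusp6 at −3.10 ± 0.21 and Spry4, which is measurable there, at −3.09 ± 0.39, all between percentiles 5.41 and 5.55. These 3 inhibitors thus had total RNA low for their nascent RNA in Dgcr8 KO cells too, including Spry4 whose level was much higher.

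Among protein-coding genes alone the wild-type percentiles were lower, 1.60 for Spry2 and 1.66 for Dusp6. The ratio for Fgf4 was −1.28 ± 0.07 in wild-type cultures and −1.21 ± 0.10 in KO cultures, at percentiles 22.2 and 23.9 of all genes. Dusp4 was close to it at −1.11 ± 0.57, with a wider spread from its low counts. The receptor Fgfr1 (0.52 ± 0.11) and the ETS factors Etv5 (0.38 ± 0.03) and Etv4 (1.5 ± 0.58) lay above the median gene, Etv4 at percentile 92.2, and Fgfr2 was at 0.02 ± 0.42. These positions depend on which genes set the median. Against the genes at 3 CPM in all 12 libraries Fgf4 stood at −1.55, Fgfr1 at 0.25 and Etv5 at 0.11, and against every gene with a read they stood at −0.71, 1.09 and 0.95. Genes with a wild-type mean below the median had few annotated exons over all transcripts: Spry2 2, Spry4 2, Fgf4 3, Dusp4 4 and Dusp6 5. The others had more: Etv5 26, Etv4 39, Fgfr2 57 and Fgfr1 104. The part of exon number in these ratios was not tested. The heptamer TATTTAT shown above was present in Spry2, Spry4, Fgf4 and Etv5 and absent from Dusp6, Dusp4, Fgfr1, Fgfr2 and Etv4. Its part in these ratios was not tested.

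**Figure D3:**
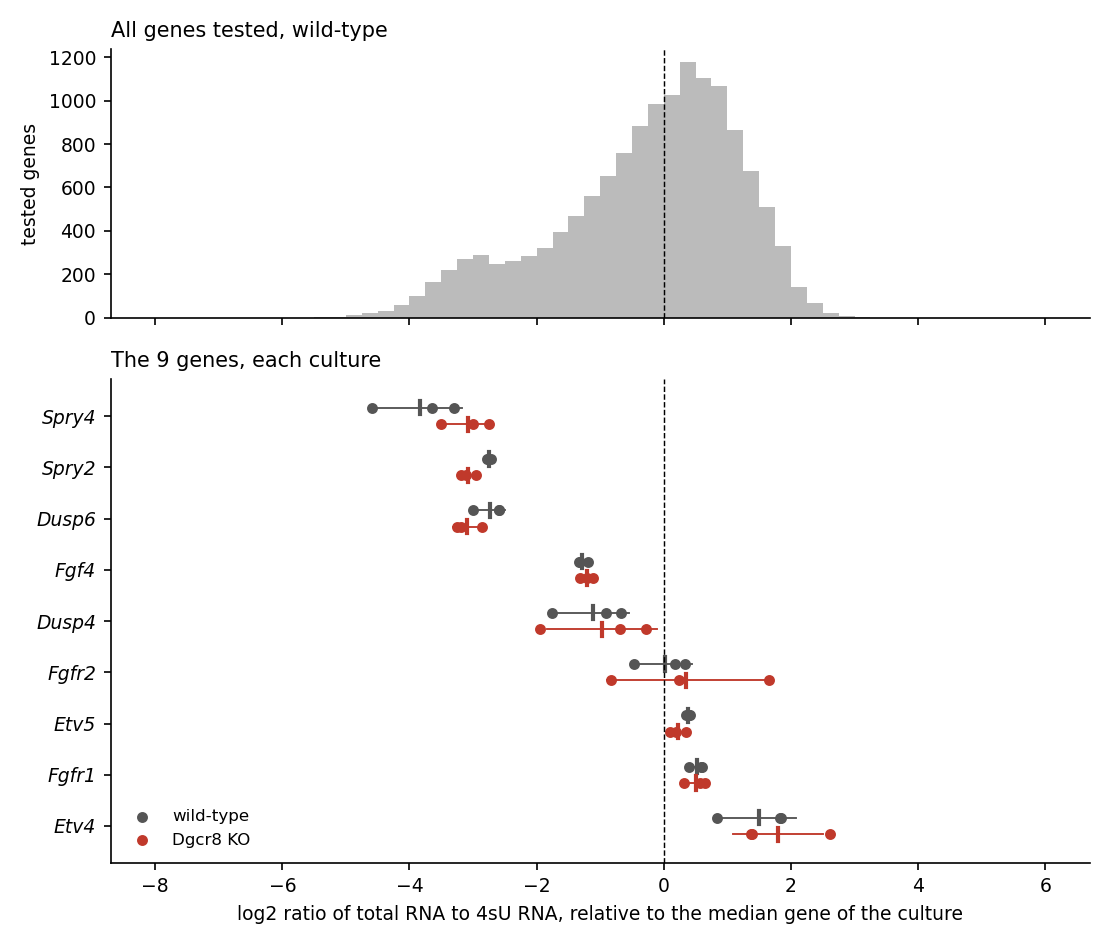
The log2 ratio of total to 4sU RNA relative to the median gene of the culture (x axis), as a histogram of all 14033 genes tested in wild-type (upper panel) and for the 9 genes (lower panel), with 1 point per culture, a tick at the mean and a line of 1 SD (n = 3). Spry2 and Dusp6 lie near −3 in both genotypes and Spry4 in Dgcr8 KO, with a lower wild-type mean of −3.84, and Etv4 is highest. The wild-type points of Spry4 rest on 0 or 1 read of total RNA and depend on the small count added before taking logs.

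The pathway was described with 6 lists that together hold 103 genes, of which 78 were tested, the 9 genes included. Without those 9, 69 genes were tested and 57 passed in total RNA, 33 higher and 24 lower (82.6%, beside 63.9% of all genes), with a median log2 change of 0.05. In nascent RNA 47 of the 69 passed, 35 higher and 12 lower (68.1%, beside 56.3% of all genes), with a median of 0.22. In stability 18 passed, 2 higher and 16 lower (26.1%, beside 16.1% of all genes), with a median of −0.13. Of the 69 genes, 7 (Fgf1, Fgf10, Fgf11, Fgf23, Klb, Spred3 and Fosb) reached the level for testing in the libraries of 1 genotype alone, so a difference was built into their selection. Among the other 62 genes, 51 passed in total RNA, 30 higher and 21 lower, and 43 passed in nascent RNA, 32 higher and 11 lower. The counts given list by list below include the 9 genes. Over all genes tested, 27.2% were higher and 36.7% lower in total RNA, and 28.3% higher and 28% lower in nascent RNA. In stability 5.02% were higher and 11.1% lower. Many genes of these lists are well expressed, and the part of expression level in these shares was not tested.

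Among the FGF family genes listed as ligands, 6 of 22 were tested and 5 passed in total RNA, 2 higher and 3 lower. The list follows the family name and was not limited to members that are secreted. Of these 5, Fgf10 and Fgf11 were tested only through wild-type libraries and Fgf1 and Fgf23 only through Dgcr8 KO libraries, which leaves Fgf3 as the call whose selection did not require a difference. Fgf10 fell by 4.19 on the log2 scale (SE 0.51) and Fgf3 by 1.18 (SE 0.23). Fgf11 fell by 2.43 and also passed in stability, at −1.83 ± 0.55, though not without KO replicate 1 (adjusted p = 0.0723), without KO replicate 2 (0.0687) or with every gene that had a read tested (0.0583). It was not tested when any wild-type replicate was left out, since it then no longer reached the level for testing. Fgf1, which binds all FGF receptors, rose by 1.65 on the log2 scale. Fgf23, a hormone-like FGF, rose from wild-type libraries with at most 3 reads and was at least 3.44-fold higher. Each of these 5 genes was counted at under 10 CPM in total RNA. Fgf2 and Fgf5, and the receptors Fgfr3 and Fgfr4, were too low to test.

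Receptors and co-receptors gave 11 tested genes of 14, of which 7 were higher and 3 lower in total RNA, with a median log2 change of 0.42. The 3 that fell were Fgfr1, Fgfr2 and Klb, the co-receptor for hormone-like FGFs, at −0.96 ± 0.29. The glypicans Gpc3 (1.23 ± 0.10) and Gpc4 (1.03 ± 0.09), heparan sulphate carriers at the cell surface, rose, as did Fgfrl1 (0.77 ± 0.11), a receptor-like protein without a kinase domain. No gene of this list passed in stability.

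In the relay from receptor to RAS, 6 of 16 genes were higher and 6 lower in total RNA. The exchange factors Sos1 (0.71 ± 0.07) and Sos2 (0.72 ± 0.08) and the RAS GTPase-activating protein Rasa2 (0.85 ± 0.09) rose. The adaptor Frs3 (−1.17 ± 0.15), the GTPase Hras (−1.12 ± 0.08) and the phosphatase Ptpn11 (−1.03 ± 0.07), which carries the FGF signal towards RAS, fell. The last 3 were lower in stability as well, with log2 differences of −1.09 for Frs3, −0.80 for Hras and −0.53 for Ptpn11, while Rasa2 was higher by 0.68. Of the RAF-MEK-ERK kinases and scaffolds, 4 of 12 were higher and 5 lower, all within 0.60 on the log2 scale: Rps6ka3, Ksr1 and Braf rose by 0.60, 0.59 and 0.46, and Map2k2, Rps6ka2 and Map2k1 fell by 0.43, 0.36 and 0.31. Map2k1 and Map2k2 encode MEK, the target of the inhibitor in the medium.

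Among the genes listed as feedback inhibitors, 8 of 19 tested were higher and 8 lower in total RNA, and 9 were higher and 7 lower in nascent RNA. The list was drawn from general knowledge, and whether each gene responds to ERK or acts on it in these cells was not tested. Genes of the list other than Spry2, Dusp4 and Spry4 thus passed in both directions, which was also seen over all genes tested. Spry1 fell with Spry2 (−1.27 ± 0.20 in total RNA, −0.92 ± 0.23 in stability), as did Dusp9 (−2.29 ± 0.09) and the EGF receptor inhibitor Errfi1 (−1.12 ± 0.13). Dusp8 (2.74 ± 0.45), Dusp14 (1.34 ± 0.09) and Il17rd (0.89 ± 0.07), a transmembrane inhibitor of FGF signalling, rose with Spry4. Of the 4 list genes that passed in stability all were lower, Spry1, Spry2, Dusp1 and Dusp14.

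The ERK-responsive transcription factors gave 14 tested genes of 18, with 7 higher and 5 lower in total RNA and 8 higher and 4 lower in nascent RNA. Etv4 and Etv5 fell while their relative Etv1 rose (0.55 ± 0.18). The ternary complex factor Elk4 rose by 1.82 on the log2 scale (SE 0.11) and was also higher in stability (1.38 ± 0.14), and the Kruppel-like factor Klf2 rose by 1.47 (SE 0.07). The immediate early genes Fos (1.32 ± 0.26) and Junb (1.18 ± 0.17) rose in total RNA. In nascent RNA Junb rose by 2.45, so its stability value was negative, −1.28 ± 0.22. Fosb passed too in limma-voom but not in edgeR (adjusted p = 0.0615) or DESeq2 (0.104), and its total RNA gives no fold because its wild-type libraries held at most 3 reads and its KO level was near that floor. Ier3 (−0.78 ± 0.28), Srf (−0.67 ± 0.09) and Elk1 (−0.43 ± 0.09) fell, Ier3 with an adjusted p of 0.0546 when wild-type replicate 3 was left out. The list median in total RNA was 0.24, and −0.08 with Fosb set at its bound.

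**Figure D4:**
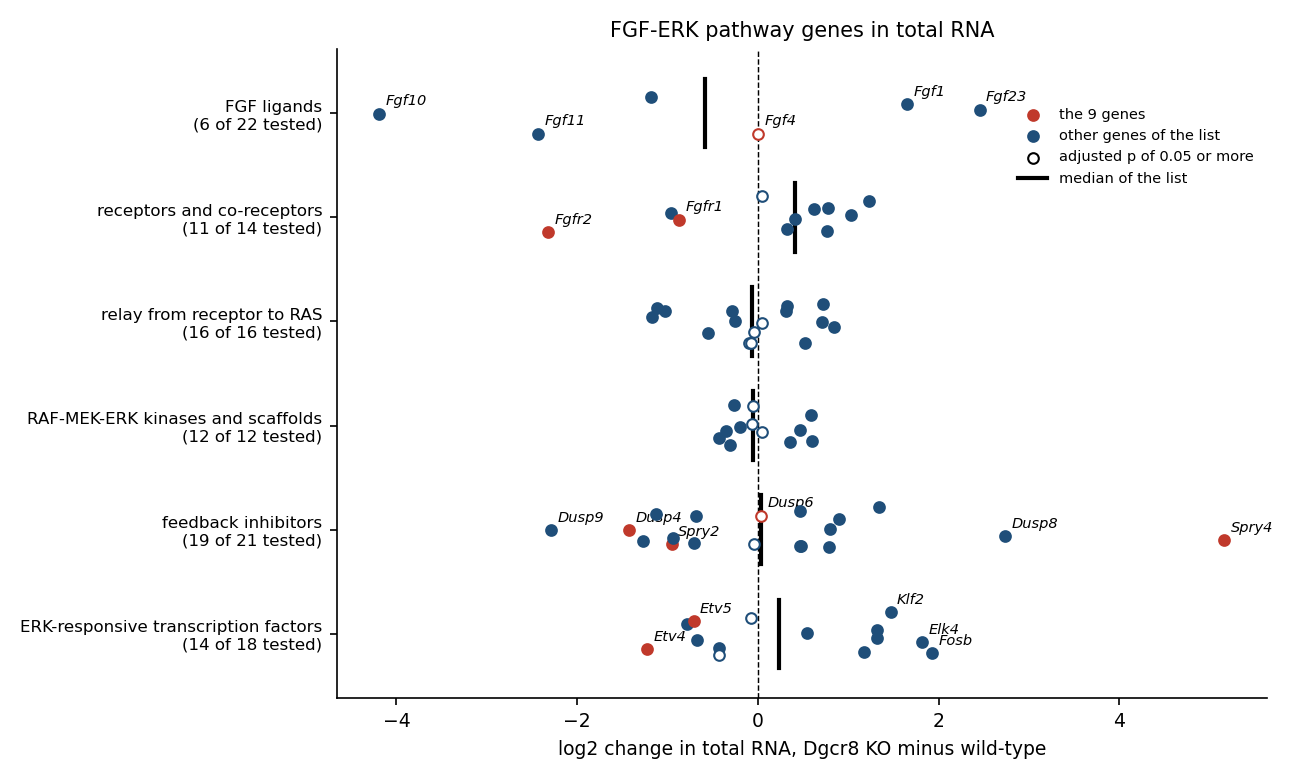
The log2 change in total RNA (Dgcr8 KO minus wild-type, x axis) of each tested gene of the 6 pathway lists, with the 9 genes in red, other genes in blue, open points for an adjusted p of 0.05 or more and a black line at each list's median. Genes of every list lie on both sides of 0. The points of Spry4, Fgf23 and Fosb are fitted values that rest on wild-type libraries with at most 3 reads.

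The profile of each gene over the 4 groups (mean log2 CPM, centred on the gene's own mean) was set beside those of 11883 tested protein-coding genes, with Euclidean distance as the measure. The nearest profiles to Fgf4 were Vasn (distance 0.07) and 1110059G10Rik (0.08). Spry4 had no close neighbour, the nearest being Irf2 at 1.02 and Doc2b at 1.38. Among the 9 genes the closest pair was Fgfr1 and Etv5, at a distance of 0.32, with 200 other protein-coding genes nearer to Fgfr1 than Etv5 was. These are descriptions over 12 libraries and carry no test.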

How the data were processed

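The authors trimmed 50 bp single-end reads with Cutadapt 1.14, mapped them uniquely to mm10 with STAR 2.5.3a and counted them per gene over exons, strand-specifically, with featureCounts 1.5.3 on GENCODE M14. The deposited values are raw read counts, and column 6 gives exonic length. The 92 spike-in rows (1 count in all) were left out. Of 51467 genes, 51274 were matched by identifier to GENCODE M21 for symbols, and coordinates in mm10 are those of the table.

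Counts were scaled by TMM (edgeR 4.0.16) and fitted in 1 limma-voom model (limma 3.58.1, R 4.3.3) over all 12 libraries. Genes were kept at 3 CPM in at least 3 libraries (14033), and p-values were adjusted over all of them. edgeR quasi-likelihood, DESeq2 1.42.0, other scalings, filters and left-out cultures were alternatives, and the scripts were tested on simulated data. The 9 genes, the pathway and marker lists and the rule for genes named from the lists (up to 3 largest rises and 3 largest falls that passed in total RNA, and those past the stability test with a log2 change over 1) were chosen with earlier results of these data known. Fos, Etv1, Dusp1 and Spred3 were named after their values were seen. So were the primed epiblast, primitive endoderm and trophoblast markers other than Fgf5 and Gata6. The sources do not say whether replicates were separate cultures, so p-values measure the spread between these samples. All 12 replicate pairs differed by more than sampling noise (chi-square per degree of freedom 1.54 to 5.10). Same-numbered wild-type and KO deviations correlated between −0.07 and 0.07, so the numbers were not taken as pairs. The depth of 4593914 to 9295245 reads per library leaves counts of a few reads imprecise, and the floor of 3 counts per library covers counting error only. Libraries of the same genotype and number were taken as the 2 fractions of 1 culture because the protocol divided each culture's RNA. Their deviations correlated only weakly (0.011 to 0.0783 over 6 pairs), and the SD of each ratio rests on that assignment. The main limma-voom model treated the 2 fractions of a culture as independent. With the culture as a block in limma-voom, Spry2 (adjusted p = 0.00387) and Etv5 (adjusted p = 0.0226) passed in stability.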

Additional observations from a re-analysis of the deposited data

Results flagged for a closer look

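For 2 of the 9 genes, for 14 of the other pathway genes named above and for Dgcr8, the change in total RNA differed from the change in nascent RNA by the test of that difference itself (limma-voom interaction, adjusted p under 0.05 over all genes). Among the 9 genes these were Spry2 (−0.42 on the log2 scale) and Etv5 (−0.26). Among the other pathway genes the difference was −1.83 for Fgf11, 0.68 for Rasa2, −1.09 for Frs3, −0.80 for Hras, −0.53 for Ptpn11, −0.53 for Ksr1, −0.53 for Rps6ka2, −0.33 for Map2k1, −0.48 for Dusp14, −0.58 for Dusp1, −0.92 for Spry1, 1.38 for Elk4, −0.96 for Ier3 and −1.28 for Junb. For Dgcr8 it was −1.09 (adjusted p = 3.11e-08). Groups of 3 libraries were too small for a check of single outlying libraries. The calls for Map2k1 and Ier3 did not hold under RLE or upper-quartile scaling, with no filter beyond 1 count, or without some of the cultures (adjusted p up to 0.0977 for Map2k1 without KO replicate 1 and 0.151 for Ier3 without KO replicate 1). Map2k1 did not pass in DESeq2 either (adjusted p = 0.0891). The call for Fgf11 did not hold without KO replicate 1, without KO replicate 2 or with no filter beyond 1 count, as given above.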

How the results depend on the processing

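Of 26 member and comparison pairs with a value, the 17 that passed kept their direction in every refit, and 267 of 278 refitted values also stayed on the same side of the threshold. The 11 that did not were 10 of Etv5 and 1 of Spry2, all in stability. The number of members past the stability test, 2, became 1 in DESeq2 and with RLE, upper-quartile or library-size scaling, 0 with no filter beyond 1 count or with a log2 change over 1 required, and 1 to 2 when a culture was left out. Requiring 3 CPM in all 12 libraries left 4 members to test, of which 3 passed in total and 3 in nascent RNA (75%, beside 70.4% and 59% of the 10261 genes tested under that filter), and 2 had a ratio below the median gene. A log2 change over 1 left 4 members in each of these fractions, 2407, 2073 and 247 genes of all in total RNA, nascent RNA and stability, and 25, 19 and 4 genes of the pathway lists with the members included (refits over the lists were added after seeing the data). With no filter, 1459 genes of all and 13 of the lists passed in stability.

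Small values changed sign without passing. Fgf4 in nascent RNA was −0.030 with DESeq2, −0.034 with RLE and −0.026 with upper-quartile scaling, and its stability became 0.063, 0.068, 0.046, 0.0054 and 0.0086 with DESeq2, RLE, upper-quartile and library-size scaling and no filter. Dusp4 stability became 0.035 in edgeR, 0.14 in DESeq2 and limma-trend, 0.078, 0.059 and 0.023 with RLE, upper-quartile and library-size scaling, and 0.014 with no filter. With a culture left out, Fgf4 ranged from −0.026 to 0.032 in total RNA, −0.015 to 0.10 in nascent RNA and −0.068 to 0.023 in stability, Dusp6 from −0.096 to 0.23 in total RNA, and Fgfr2, Dusp4 and Etv4 in stability from −0.42 to 0.87, −0.36 to 0.45 and −0.20 to 0.44. Against protein-coding genes only, the wild-type ratio of Fgfr2 was −0.20, and it ranged from −0.14 to 0.26 without a wild-type culture. Across the sets of genes that gave the median, the wild-type ratio ranged from −1.55 to −0.71 for Fgf4, 0.25 to 1.09 for Fgfr1, 0.11 to 0.95 for Etv5, −3.03 to −2.19 for Spry2 and −2.95 to −2.16 for Dusp6. Each ratio is centred on the median of the set of genes used, so a change of set moves all ratios of a culture by the same amount. The cause of the other changes given in this paragraph was not tested. The 3′ UTRs of 2 members (Fgf4 and Spry4) held the hexamer GCACTT, beside 34.0% of the background, and of 8 the pentamer ATTTA, beside 70.6%.

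With the replicate number as a block (replicate block), 7, 8 and 2 members passed in total RNA, nascent RNA and stability, Fgf4 in total RNA was −3.13e-05 and Dusp4 stability 0.018. The block changed no call of a member. Few reads limit the precision of every value given for Fgfr2 (2 to 11 per KO library), Dusp4 (5 to 15) and, in nascent RNA, Etv4 (4 to 9).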
